A study of Rattus norvegicus with 30 samples.

Results

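Vertical sleeve gastrectomy (VSG) was compared with its sham operation in rats that fed freely, using gene expression in the ileum. The comparison rested on 12 of the 30 arrays of the series, those titled VSG replicates 1 to 6 and Sham_VSG replicates 1 to 6, chosen by title alone. All rats were male, wild-type Long-Evans animals of 8 to 10 weeks. All were moved from solid food to the liquid diet Osmolite on the day before the operation, and all were opened along the midline of the abdomen under isoflurane. In VSG, about 80% of the stomach was cut away along its greater curvature with a stapler, which left a narrow sleeve. In the sham operation blunt forceps were pressed on the stomach along the line of that cut. Sham_VSG is read as freely fed because a separate group, Sham_VSG_PF, carries the label for paired feeding. Sham_VSG_PF, also of 6 rats, is used as a second reference. The spread between rats was estimated from all 30 arrays, so its arrays enter that estimate too. The time between operation and tissue collection was not given in the sources used here.

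Sleeve gastrectomy reduces body weight and improves glucose control, and it is known for larger meal-induced release of gut hormones such as GLP-1 and PYY, which the ileum also makes. The ileum is the last segment of the small intestine. Its absorptive cells take back bile acids and vitamin B12, and they absorb calcium, sugars, peptides and fat that the upper gut has left. Its wall also holds lymphoid follicles, the Peyer's patches, which are rich in B cells.

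The deposited values were log2 signals, computed by the authors with RMA, so a difference of 1 is a doubling of the signal. Genes were included where a transcript cluster (the array's unit for 1 transcribed locus) carried exactly 1 gene symbol, with the brightest cluster kept per symbol. Of 14557 such symbols, 10918 passed a filter on dim genes at a mean log2 signal of 2.33 and were tested. Medians of the 12 arrays lay between 3.10 and 3.21, and correlations between pairs of arrays between 0.949 and 0.987. The tissue label was borne out by its defining genes. The bile acid carrier Fabp6, restricted to ileal absorptive cells, was at 12.06 ± 0.04 after VSG and 12.06 ± 0.08 in shams (SD, n = 6), and the ileal bile acid importer Slc10a2 was at 10.41 ± 0.32 and 10.25 ± 0.37.

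The means of B and plasma cell genes and of fat cell genes set some arrays apart, and their values bear on the results that follow. Whether this came from the tissue sampled or from the rats was not tested. The mean of 14 B and plasma cell genes was high in VSG replicates 1 and 4 (6.57 to 7.75) and in Sham_VSG replicates 1, 2 and 4 (6.83 to 7.75). In the remaining 7 arrays it lay between 4.18 and 5.09. The mean of 14 fat cell genes was 7.26 in VSG replicate 1 and between 4.80 and 5.14 in the other 11 arrays. Differences are therefore also given for the arrays low in B and plasma cell genes alone (4 against 3), without VSG replicate 1, or from a fit with the B and plasma cell mean as a covariate. The medians of gene lists rested on few arrays. Of 45 lists, 21 had a median of at least 0.1 in size, and leaving out 1 array moved 16 of these by more than 1.5 times, with a change of sign in 2. The B and plasma cell covariate moved 17 of the 21 by as much. Of the 24 smaller medians, 1 array moved 23, with a change of sign in 13, so no direction is read from them. In bulk tissue, fewer cells of a type and less RNA per cell cannot be told apart.

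No gene passed in VSG against Sham_VSG. With limma, 0 of 10918 genes (0.0%) had an adjusted p below 0.05, and the lowest adjusted p was 0.183. At an unadjusted p below 0.05 there were 661 genes (6.05%), of which 220 (2.02%) were higher and 441 (4.04%) lower after VSG. Over all genes tested, the median log2 difference was -0.03, and the 5th and 95th percentiles were -0.36 and 0.28. The median 95% interval reached 0.31 to either side. For 10370 genes (95%) the whole 95% interval lay within 2-fold in either direction, and for 8355 (76.5%) within 1.5-fold. For those genes, a change beyond that size lay outside the interval. A difference of at least 1.5-fold was measured for 201 genes (1.84%) and of at least 2-fold for 21 (0.192%). Every fold below therefore describes a gene that did not pass.

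**Figure D1:**
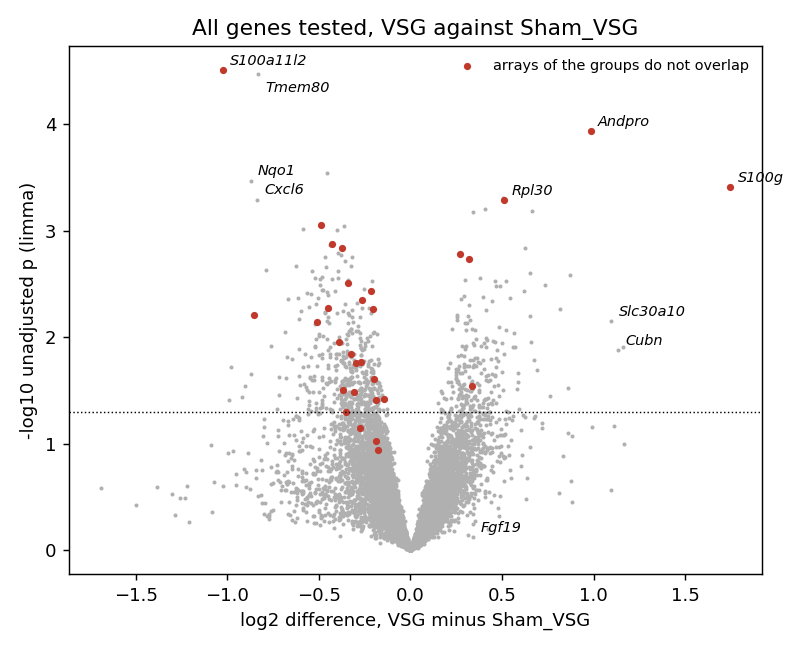
Each point is 1 of the 10918 genes tested. The x axis gives the log2 difference of VSG minus Sham_VSG. The y axis gives the negative log10 of limma's unadjusted p, with a dotted line at 0.05. Red points are genes whose VSG and Sham_VSG arrays do not overlap. S100g lies alone at the right, at 1.75, and S100a11l2 and Tmem80 have the smallest p.

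S100g showed the largest positive difference of all the genes tested. It encodes calbindin-D9k, the small protein that ferries calcium across absorptive cells and is a classic target of vitamin D. Its log2 signals after VSG were 11.05, 10.93, 10.98, 10.09, 9.70 and 10.51 in replicates 1 to 6, and in shams 9.38, 9.36, 8.18, 8.22, 9.03 and 8.62. The lowest VSG array lay above the highest sham array, so the groups did not overlap. The difference was 1.75 (95% interval 0.86 to 2.63), a 3.35-fold higher signal, and did not pass (adjusted p = 0.605). It was 1.92 in the arrays low in B and plasma cell genes and 1.64 without VSG replicate 1, and lay between 1.62 and 1.91 with each array left out in turn.

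The other genes of calcium and vitamin D handling did not share that size. Of 11 members tested, 9 were higher and 2 lower, with 0 past the threshold and a median log2 difference of 0.24, against -0.03 over all genes. The median was 0.13 with the B and plasma cell covariate and 0.10 with no filter on dim genes. In all genes 43.5% were higher and 56.5% lower. That majority depended on the scaling, as the median over all genes was 0.02 with arrays centred on their medians. Slc30a10, an exporter of manganese, came next. Its signals were 6.85, 7.84, 7.47, 6.44, 6.79 and 7.58 after VSG and 7.01, 5.03, 6.43, 5.82, 5.87 and 6.22 in shams. All 6 VSG arrays exceeded the sham mean, but Sham_VSG replicate 1 lay within the VSG range. The difference was 1.10 (95% interval 0.32 to 1.87; adjusted p = 0.737). The receptor gene Vdr, through which vitamin D acts, was at 9.27 ± 0.33 against 9.20 ± 0.29 (SD, n = 6; adjusted p = 0.953). Named outside the rule, after their values were seen, are 3 further members. Atp2b1, the calcium pump of the basal membrane, differed by 0.25 (interval -0.08 to 0.59), Cyp24a1, which degrades vitamin D, by -0.01 (-0.55 to 0.53), and the pore-forming claudin Cldn2 by 0.01 (-0.21 to 0.23). The apical calcium channel Trpv6 fell below the filter on dim genes and gave no value.

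Of the remaining 11 higher genes with the smallest p and a difference of at least 0.40, Andpro ranked first. Its signals were 4.56, 4.28, 4.45, 3.86, 4.71 and 4.11 after VSG and 3.49, 3.47, 3.65, 3.37, 3.01 and 3.07 in shams, without overlap. The difference was 0.98 (adjusted p = 0.425). Zbtb16, a transcriptional repressor of innate-like lymphocytes and other cells, was at 4.33 ± 0.69 against 3.46 ± 0.44 (SD, n = 6), a difference of 0.87 that was 1.10 without VSG replicate 4, where it was lowest at 3.19. Slc52a2, which carries the vitamin riboflavin, was at 7.22 ± 0.37 against 6.60 ± 0.17. Of its VSG arrays, 5 lay above every sham array. Rpl30, a protein of the large ribosomal subunit, was between 11.32 and 11.65 after VSG and between 10.50 and 11.28 in shams. Its difference of 0.51 was 0.08 when its clusters were averaged in place of taking the brightest. The other 7 were Lhfpl2, the zinc finger gene Zfp879, the neuronal membrane protein gene Sez6l2, the ectonucleotidase gene Entpd3, Anks3, the endocytic adaptor gene Ston2 and Uts2r, the urotensin receptor. Their differences ran from 0.41 for Uts2r to 0.74 for Zfp879, with adjusted p of 0.605 to 0.706. For Zfp879 and Entpd3 the sham mean lay below the filter level on dim genes, so the size of these differences is uncertain. Sham arrays lay near that level too for Sez6l2, at 2.41 to 2.59, and for Uts2r, at 2.47 to 2.85. The difference of 0.46 for Ston2 was 0.23 in the arrays low in B and plasma cell genes.

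Among the 12 lower genes of the same rule, S100a11l2, an S100A11-like gene, had the smallest p of all genes. Its signals after VSG were 5.43, 4.76, 4.66, 5.12, 3.83 and 5.29, and in shams 5.72, 5.88, 6.41, 5.46, 5.89 and 5.86. The groups did not overlap, by a margin of hundredths between VSG replicate 1 and Sham_VSG replicate 4. Its difference was -1.02 (95% interval -1.45 to -0.60; adjusted p = 0.183), and -1.42 in the arrays low in B and plasma cell genes. Tmem80, a transmembrane protein gene, was at 3.82 ± 0.32 against 4.65 ± 0.37 (SD, n = 6; adjusted p = 0.183), with 5 of 6 VSG arrays below every sham array.

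Nqo1, a quinone reductase and a standard target of the oxidative stress regulator NRF2, had the second largest difference of the 12 in size. It was at 5.71, 6.08, 6.11, 6.04, 6.87 and 6.07 after VSG and at 6.59, 7.03, 7.30, 6.79, 7.25 and 7.15 in shams. VSG replicate 5 stood apart from the other VSG arrays and alone reached the sham range. The difference of -0.87 (95% interval -1.31 to -0.43; adjusted p = 0.605) was -1.02 without that array. Cxcl6, a chemokine that attracts neutrophils, was at 2.11 ± 0.23 against 2.95 ± 0.49 (SD, n = 6), and no fold is given because the VSG mean lay below the filter level. Dnajb4, a co-chaperone of the heat shock system, was at 5.41 ± 0.15 against 5.84 ± 0.14 without overlap. Lrpap1, the chaperone of the LDL receptor family, was at 5.89 ± 0.26 against 6.33 ± 0.14, a difference of -0.44 that was -0.26 in the arrays low in B and plasma cell genes. The remaining genes were Xrcc2, a homologous recombination protein, Bbip1, a subunit of the ciliary BBSome, and Cxhxorf38, Gpatch4, Fam185a and Kctd9. Their differences ran from -0.62 for Xrcc2 to -0.40 for Kctd9, with adjusted p of 0.605 to 0.702.

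**Figure D2:**
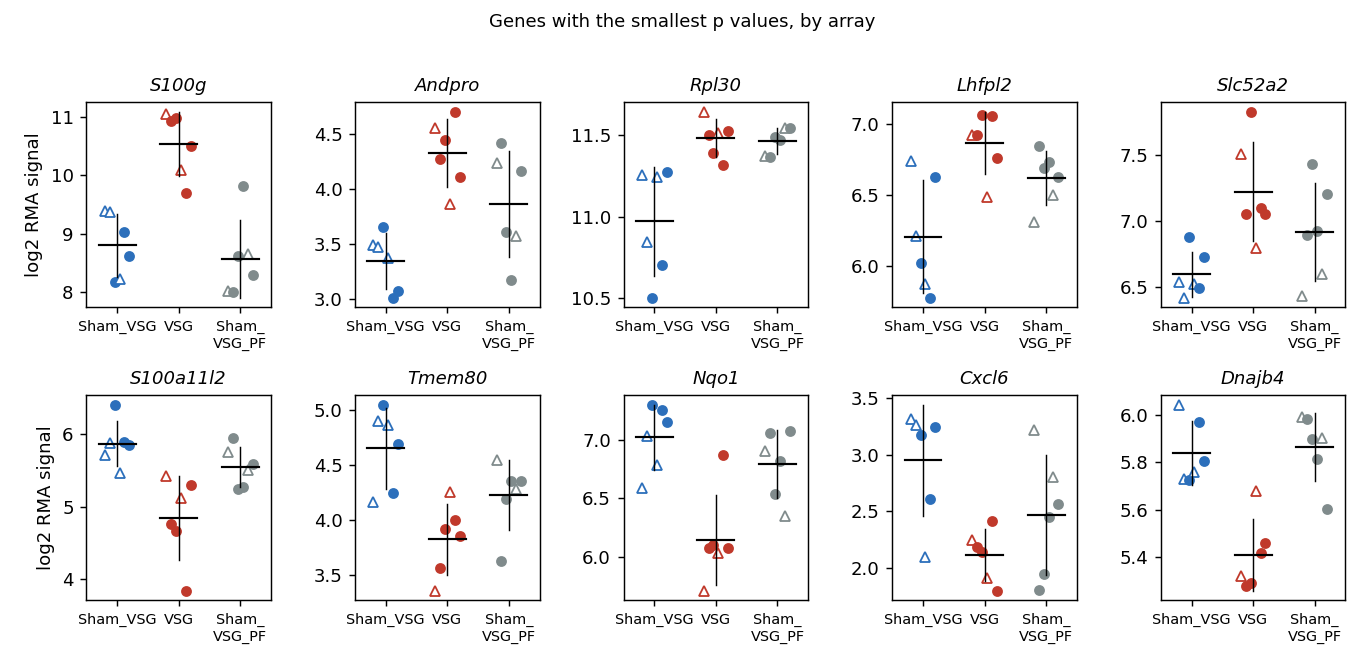
Log2 RMA signal per array for 5 higher and 5 lower genes among those with the smallest p, in Sham_VSG (blue), VSG (red) and Sham_VSG_PF (grey), 6 arrays each. Filled circles are arrays low and open triangles arrays high in B and plasma cell genes, with the mean as a horizontal line and the SD as a vertical bar. S100g, Andpro, Rpl30, S100a11l2 and Dnajb4 do not overlap between VSG and Sham_VSG, and Nqo1 has 1 high VSG array, replicate 5.

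Groups without overlap were rare in either direction. The 6 VSG arrays all lay above the 6 sham arrays for 6 genes (0.055% of those tested) and all below for 24 (0.22%). The 6 higher genes were S100g, Andpro, Rpl30, Tspan2, G4 and Fem1c, of which the last 3 are named outside the rule and differed by 0.33, 0.32 and 0.27. Most of the 24 lower genes differed little. Among them Arf4, a GTPase of the Golgi, differed by -0.14, and Selenom, a selenoprotein of the endoplasmic reticulum, by -0.26 (both named outside the rule). Of the 12 lower genes with the smallest p, 3 were among the 24, namely S100a11l2, Cxhxorf38 and Dnajb4.

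Genes of nutrient uptake lay mostly above the sham level, none past the threshold. All 9 sugar genes tested were higher, with a median difference of 0.38. It was 0.37 in the arrays low in B and plasma cell genes, but 0.18 with those genes as a covariate and 0.23 without Sham_VSG replicate 2. The list mean ran from 5.89 to 7.36 after VSG and from 5.75 to 7.06 in shams, so the groups overlapped over most of their range. The basolateral glucose transporter Slc2a2 had the largest difference, 1.16 (interval -0.24 to 2.57), and Pck1, of gluconeogenesis, differed by 0.88 (-0.13 to 1.89). Both are named outside the rule. Of 17 peptide and amino acid genes, 16 were higher, with a median of 0.17 that was 0.27 without VSG replicate 4 and 0.10 with the B and plasma cell covariate. Their smallest p belonged to Slc16a10, a transporter of aromatic amino acids, at 7.50 ± 0.28 against 7.09 ± 0.30 (SD, n = 6; adjusted p = 0.775), with VSG replicate 4 lowest among the VSG arrays at 6.95.

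Fat absorption genes were higher in 15 of 20, with a median of 0.17. It was 0.04 in the arrays low in B and plasma cell genes, 0.07 with those genes as a covariate, 0.11 when VSG replicate 1 was left out and 0.27 when VSG replicate 4 was. Tm4sf5, a tetraspanin-like membrane protein, led them. Its signals were 9.34, 8.00, 9.0, 7.67, 8.38 and 9.13 after VSG and 7.64, 8.08, 7.48, 7.73, 7.47 and 8.54 in shams. The groups overlapped, and the difference was 0.76 (95% interval 0.05 to 1.47; adjusted p = 0.788). Dgat2, an enzyme of the last step of triglyceride synthesis, was at 7.74 ± 0.34 against 7.42 ± 0.28 (SD, n = 6). Among sterol genes Abcg5, a subunit of the pump that returns plant sterols and cholesterol to the lumen, was at 6.48 ± 0.92 against 5.49 ± 0.94, a difference of 0.99 (-0.09 to 2.07). Srebf1, a regulator of fatty acid synthesis, was at 6.19 ± 0.14 against 5.91 ± 0.22, a difference of 0.28 that was 0.09 in the arrays low in B and plasma cell genes. Cholesterol synthesis genes were lower in 11 of 14, with a median of -0.0955, from which no direction is read. It was -0.04 without VSG replicate 3, -0.05 with arrays centred on their medians and -0.19 in the arrays low in B and plasma cell genes. Ppara, the receptor that switches on fatty acid oxidation, was at 6.26 ± 0.47 against 5.67 ± 0.37 (adjusted p = 0.788), in a list of 26 whose median was 0.03.

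Micronutrient genes were higher in 21 of 27, with a median of 0.09, from which no direction is read. It was 0.02 with the B and plasma cell covariate, 0.04 without Sham_VSG replicate 4 and 0.16 without VSG replicate 4. Cubn, the receptor that takes up vitamin B12 bound to intrinsic factor, had the largest difference. Its signals were 9.20, 8.16, 8.92, 6.66, 8.44 and 9.40 after VSG and 7.99, 6.63, 7.27, 7.22, 7.01 and 7.85 in shams. VSG replicate 4 sat with the lowest sham array, and the other 5 VSG arrays lay above every sham array. The difference was 1.13 (95% interval 0.26 to 2.01; adjusted p = 0.776), and 1.49 without VSG replicate 4. Its membrane partner Amn, named outside the rule, differed by 0.07.

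The period genes of the circadian clock, which feed back on the CLOCK and BMAL1 transcription factors, were higher on average. Per2 was at 7.17, 6.64, 7.71, 6.23, 7.57 and 7.76 after VSG and at 6.32, 5.68, 6.81, 6.44, 6.80 and 6.98 in shams. VSG replicates 2 and 4 lay inside the sham range and the other 4 above it. The difference was 0.68 (95% interval 0.13 to 1.22; adjusted p = 0.776). Per1 was at 6.66 ± 0.40 against 6.19 ± 0.38 (SD, n = 6; adjusted p = 0.776), a difference of 0.47. Per3 differed by 0.46, the output factor Dbp by 0.43 and Bmal1 by -0.35, all 3 named outside the rule. Of 11 clock genes 9 were higher, with a median of 0.25. It was 0.13 without Sham_VSG replicate 2, 0.15 without VSG replicate 6, and 0.16 both in the arrays low in B and plasma cell genes and with those genes as a covariate. The time of day of collection was not given in the sources used here.

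The 250 bases before the Per2 start site are shown because CLOCK and BMAL1 act on this gene family through short elements called E-boxes. The sequence is that of RefSeq on GRCr8, chr9:99496994-99497243, minus strand, with the E-box variant CACGTT in capitals, beginning 62 bases before the start.
Per2: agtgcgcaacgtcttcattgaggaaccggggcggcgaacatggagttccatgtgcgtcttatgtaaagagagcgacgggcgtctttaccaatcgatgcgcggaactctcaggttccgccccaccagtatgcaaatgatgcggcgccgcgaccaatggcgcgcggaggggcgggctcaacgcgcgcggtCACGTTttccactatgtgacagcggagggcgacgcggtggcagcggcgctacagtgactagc
Of the 11 clock genes tested, 10 had a promoter in the table. Searched on both strands of this 250-base window, CACGTT occurred in 2 of these (Per2 and Cry2) and in 4.07% of all 33469 promoters, and the canonical E-box CACGTG in 1 (Bhlhe40) and in 5.59%. Both motifs begin with CACGT, but no single site can match both, and a match describes these letters only.

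Bile acid genes divided into steady transporters and strongly scattered targets. The export pair Slc51a and Slc51b was at 10.91 ± 0.16 against 10.89 ± 0.17 and at 10.73 ± 0.17 against 10.79 ± 0.20 (SD, n = 6). For Slc51a the 95% interval of the difference was -0.17 to 0.21. Fgf19 encodes the hormone (FGF15 in rodents) that the ileum releases when bile acids activate the receptor FXR. Its signals were 10.73, 9.25, 11.37, 9.83, 5.33 and 11.07 after VSG and 11.13, 8.28, 10.68, 9.96, 5.69 and 9.78 in shams. In both groups replicate 5 was far below the rest, and Nr0b2, another FXR target, was also lowest in those arrays, at 3.08 and 3.98. The Fgf19 difference of 0.34 had a 95% interval from -1.89 to 2.57 (adjusted p = 0.957). It was 1.19 without VSG replicate 5 and -0.37 without Sham_VSG replicate 5, and no direction can be given.

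**Figure D3:**
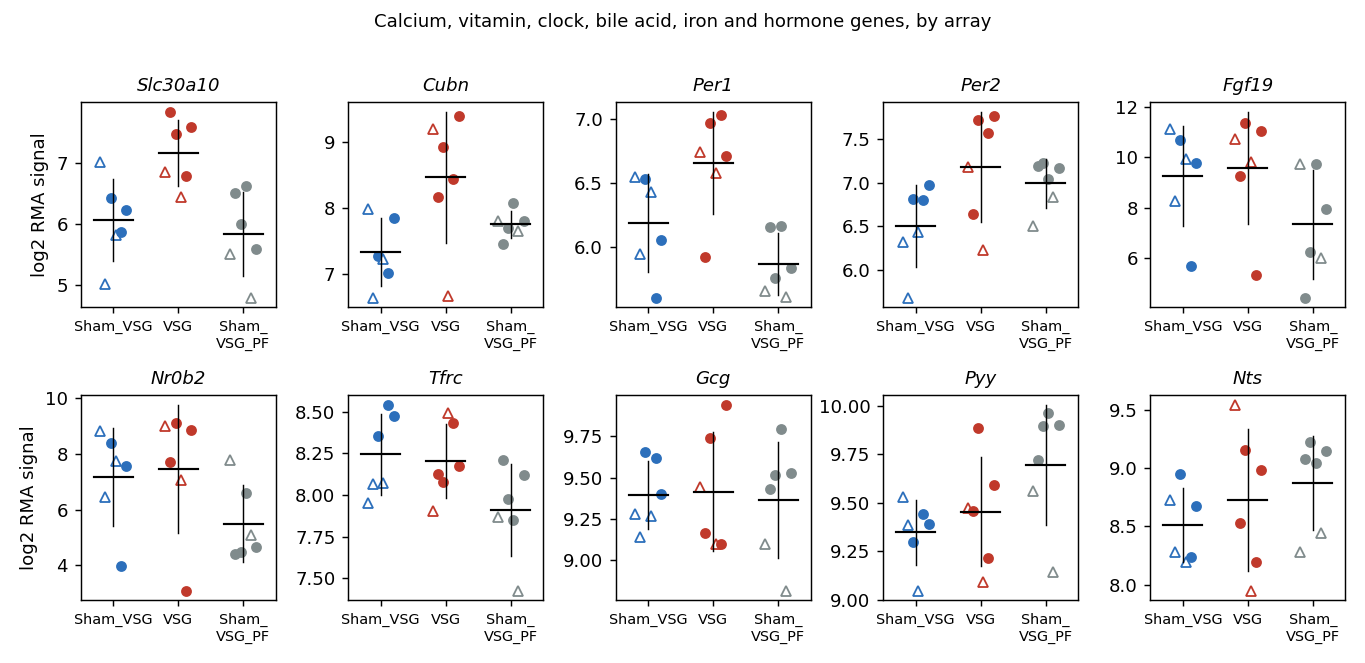
Log2 RMA signal per array for Slc30a10, Cubn, Per1, Per2, Fgf19, Nr0b2, Tfrc, Gcg, Pyy and Nts in Sham_VSG (blue), VSG (red) and Sham_VSG_PF (grey), 6 arrays each. Filled circles are arrays low and open triangles arrays high in B and plasma cell genes, with the mean as a horizontal line and the SD as a vertical bar. Cubn has 5 VSG arrays above every Sham_VSG array, while Fgf19 and Nr0b2 each have 1 very low array in both groups.

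Immune genes lay mostly below the sham level. B and plasma cell genes were lower in 13 of 14, with a median difference of -0.78 that rested on single arrays. It was -1.36 when VSG replicate 4 was left out, -0.51 when VSG replicate 5 was, and -0.52, -0.42 and -0.40 without Sham_VSG replicates 1, 2 and 4 in turn. In the arrays low in those genes it was -0.60, and with smooth muscle genes as a covariate -0.46. The low arrays were picked by the mean of this same list, so their value is no separate check, for the list or for its members. The split of 2 high arrays after VSG and 3 in shams moves with the median of the list. Jchain, which joins the units of secreted IgA, was at 10.37 ± 0.29 against 10.75 ± 0.19 (SD, n = 6; adjusted p = 0.788), a difference of -0.38 that was -0.59 in the arrays low in B and plasma cell genes. T and NK cell genes were lower in 22 of 22, with a median of -0.53, and again in 22 of 22 with a median of -0.46 in the arrays low in B and plasma cell genes. With the B and plasma cell covariate the median was -0.20. The T and NK list mean nevertheless overlapped, from 4.66 to 6.21 after VSG and from 5.27 to 6.30 in shams. Prf1, the pore protein of cytotoxic cells, was at 4.05 ± 1.02 against 4.85 ± 0.48, and its difference of -0.80 was -0.46 without VSG replicate 3, where it was 2.36, and -0.52 with the covariate.

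Macrophage and dendritic cell genes were lower in 15 of 21, with a median of -0.18. It was -0.01 with the B and plasma cell covariate, -0.07 without Sham_VSG replicate 2, -0.11 when VSG replicate 5 was left out and -0.27 when VSG replicate 4 was. Adgre1, which encodes the F4/80 antigen of macrophages, was at 3.75, 3.16, 3.13, 3.82, 3.46 and 3.32 after VSG and at 3.71, 3.90, 4.00, 3.51, 4.46 and 4.66 in shams. All 6 VSG arrays lay below the sham mean, and the highest of them overlapped the shams. Its difference of -0.60 (adjusted p = 0.720) was -1.11 in the arrays low in B and plasma cell genes. Chemokines and their receptors were lower in 30 of 36, with a median of -0.28. It was -0.07 with the covariate, -0.18 when VSG replicate 5 was left out and -0.49 when VSG replicate 4 was. All 11 MHC class II genes were lower, with a median of -0.16, and -0.07 with the covariate. RT1-CE5, an MHC class I gene, was at 5.62 ± 0.67 against 6.61 ± 0.47 (SD, n = 6; adjusted p = 0.793), a difference of -0.99 that was -0.63 with the covariate. It belongs to a family of near-identical copies, so its probes may read more than 1 gene.

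Cell cycle genes were lower in 23 of 23. The whole 95% interval lay within 2-fold for each, and for 95% of all genes tested. The median difference of the cell cycle genes was -0.20, with -0.28 in the arrays low in B and plasma cell genes and -0.13 with those as a covariate. The list mean ran from 6.27 to 6.98 after VSG and from 6.48 to 7.00 in shams, and was highest in replicate 4 of both groups, an array high in B and plasma cell genes in each case. Bub1b, a kinase of the mitotic checkpoint, had the smallest p of the list, at 5.47 ± 0.25 against 5.87 ± 0.23 (SD, n = 6; adjusted p = 0.788). Stem cell and Wnt genes, 7 of 8 higher, had a median of 0.11 (0.07 without VSG replicate 1, 0.05 without Sham_VSG replicate 4 and 0.06 with the covariate) and were all within 1.5-fold over the whole interval.

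Stress and detoxification genes showed no common direction. The NRF2 and glutathione list held Nqo1 and had 17 of 24 lower, with a median of -0.11 that was -0.07 without VSG replicate 4 and -0.06 with arrays centred on their medians. The carbonyl reductase Cbr1, named outside the rule, differed by -0.62 (interval -1.20 to -0.04), while NRF2's own gene Nfe2l2, also outside it, differed by -0.05. Cyp1a1, the enzyme induced through the aryl hydrocarbon receptor, was between 2.22 and 2.59 after VSG and at 5.27, 2.56, 2.88, 2.60, 3.66 and 2.99 in shams. Its difference of -0.90 was -0.51 without Sham_VSG replicate 1. The VSG values lay close to the filter level of 2.33 on dim genes, so the size of this difference is uncertain. The receptor's repressor Ahrr was at 4.08 ± 0.30 against 4.55 ± 0.42 (SD, n = 6; adjusted p = 0.788). Atf3, a stress-induced transcription factor, was at 7.33 ± 0.32 against 6.47 ± 0.44, above the sham mean in 6 of 6 arrays. Nr4a1, an immediate early gene, was at 4.63 ± 0.58 against 5.24 ± 0.48, with VSG replicate 4 alone at 5.78 and a difference of -0.84 without it.

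Iron and hormone genes, the subject of the series, had medians near that of all genes. The iron list had 9 genes higher and 9 lower with a median of 0.01, and the hypoxia list 9 higher and 10 lower with a median of -0.02. The 95% interval of the transferrin receptor gene Tfrc, -0.35 to 0.27, lay within 1.5-fold in either direction. Among further iron genes of the rule, Hmox1 differed by -0.34 (adjusted p = 0.788) and Ireb2 by 0.14. The Hmox1 difference was -0.45 in the arrays low in B and plasma cell genes, and -0.40 to -0.27 with each array left out. For Gcg, which encodes the precursor of GLP-1, the interval was -0.35 to 0.40, and for the hormone gene Pyy -0.18 to 0.39. The enteroendocrine list had 10 genes higher and 7 lower with a median of 0.02, all within 2-fold over the whole interval. Of all genes tested, 95% lay within 2-fold in this way. The smallest p of the enteroendocrine list belonged to Tph1, the serotonin-synthesis enzyme of enterochromaffin cells. Tph1 was at 4.61, 3.99, 4.60, 5.09, 4.29 and 4.88 after VSG and at 5.07, 5.14, 5.29, 4.22, 5.49 and 5.11 in shams, with Sham_VSG replicate 4 alone low among the shams. The difference was -0.48 (adjusted p = 0.788), and -0.64 without that array and -0.85 in the arrays low in B and plasma cell genes. No cluster carried only the symbol of Slc11a2, the apical iron importer, or of the hormone gene Cck, so neither was measured here.

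Most housekeeping genes lay within narrow intervals, as did most genes tested. Of 41 oxidative phosphorylation genes, 40 lay within 1.5-fold over the whole 95% interval, with 32 lower and a median of -0.05. Of 44 ribosomal protein genes, 38 did so, with 36 lower and a median of -0.09, and Rpl30, at 0.51, was the highest of them. With arrays centred on their medians, the oxidative phosphorylation median was -0.004 and the ribosomal one -0.04. Junction and barrier genes were higher in 19 of 21 with a median of 0.07, and 19 lay within 1.5-fold. That median was -0.005 with the B and plasma cell covariate and 0.02 without Sham_VSG replicate 4. In the arrays low in B and plasma cell genes 14 were higher and 7 lower, so no direction is read. Goblet cell genes had a median of -0.05, and their mucus gene Clca1 was at 11.21 ± 0.08 against 11.29 ± 0.06 (SD, n = 6). Outside the rule, the sialyltransferase St6galnac1 and the alkaline phosphatase Alpi had large negative differences with wide intervals, -1.38 (-3.81 to 1.05) and -1.30 (-3.80 to 1.19). Fat cell genes had a median of 0.45 that was -0.01 without VSG replicate 1, 0.06 in the arrays low in B and plasma cell genes and 0.29 with arrays weighted by limma.

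**Figure D4:**
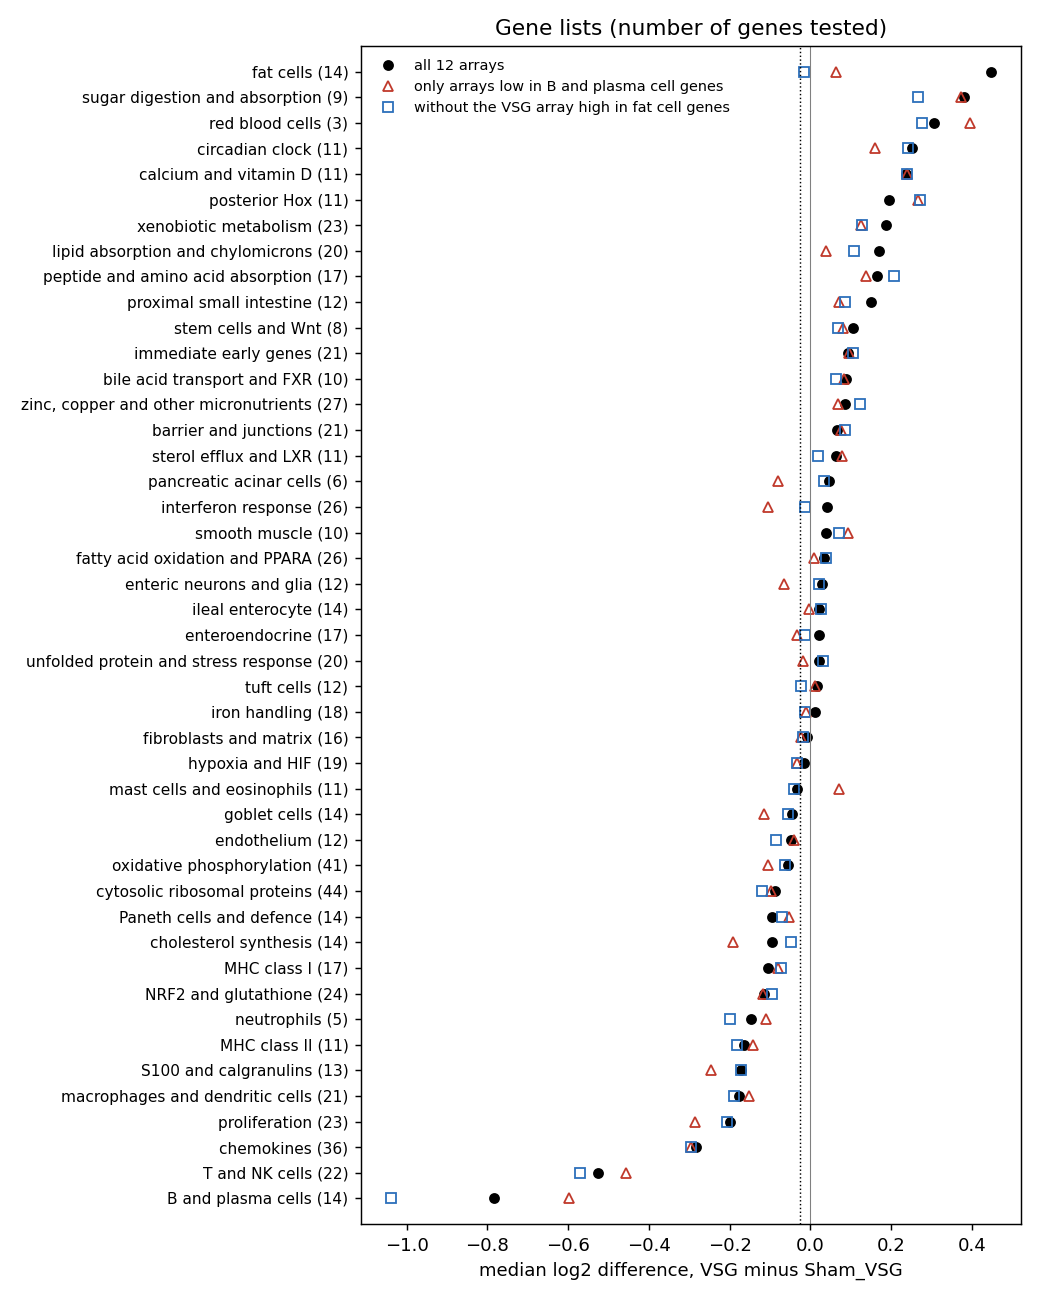
Median log2 difference of VSG minus Sham_VSG over the genes tested in each of 45 lists, with the number of genes in brackets. Black circles use all 12 arrays, red triangles only the arrays low in B and plasma cell genes, and blue squares leave out VSG replicate 1. The dotted line is the median of all genes, -0.03. Sugar genes lie at 0.38 and T and NK cell genes at -0.53, and fat cell genes move from 0.45 to -0.01 without VSG replicate 1.

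Paired feeding of sham-operated rats gave a second reference. VSG against Sham_VSG_PF and Sham_VSG_PF against Sham_VSG share arrays with the comparison above, so their values are set side by side only. Neither gave a gene past the threshold by limma (0 of 10918, 0.0%, in each; lowest adjusted p = 0.489 and 0.186). At an unadjusted p below 0.05 there were 649 genes (5.94%) and 582 genes (5.33%). S100g in Sham_VSG_PF was at 8.02, 8.00, 8.61, 9.81, 8.66 and 8.29. Only replicate 4 reached the VSG range, and the difference of VSG from this group was 1.98 (95% interval 1.09 to 2.87; adjusted p = 0.489), beside 1.75 from the freely fed shams.

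For some genes the paired-fed shams sat with the freely fed ones and for others with VSG. Dnajb4 was between 5.60 and 5.99 in Sham_VSG_PF, a mean of 5.86 beside 5.84 in Sham_VSG and 5.41 after VSG. Slc30a10 was at 5.83 ± 0.69 (SD, n = 6), beside 6.06 and 7.16. By contrast Rpl30 was between 11.37 and 11.55, a mean of 11.47 beside 10.97 in Sham_VSG and 11.48 after VSG. Kctd9 was at 4.74 ± 0.18, beside 5.23 and 4.83, and Xrcc2 at 3.38 ± 0.21, beside 4.03 and 3.40. Andpro and Tmem80 lay between, at 3.86 ± 0.49 and 4.23 ± 0.32. Per1 was at 5.87 ± 0.24 in Sham_VSG_PF, 0.80 below VSG, whereas Per2 was at 6.99 ± 0.28, 0.19 below VSG. Fgf19 ranged from 4.40 to 9.73 in Sham_VSG_PF, with a mean of 7.34. List medians are given in VSG minus Sham_VSG_PF and then in Sham_VSG_PF minus Sham_VSG. B and plasma cell genes were at -0.15 and -0.53, and macrophage and dendritic cell genes at -0.02 and -0.13. Cell cycle genes were at -0.06 and -0.15, T and NK cell genes at -0.28 and -0.22, and sugar genes at 0.23 and 0.30. Chemokines were at -0.29 and -0.05, and fat absorption genes at 0.22 and -0.09.

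The size of the sleeve difference was also set against that of gastric bypass (RYGB, 6 rats) and its own shams (6 rats). The difference between the effects passed for 0 of 10918 genes (0.0%; lowest adjusted p = 0.406), and 624 (5.72%) had an unadjusted p below 0.05. For S100g the RYGB effect minus the VSG effect was 0.01 (95% interval -1.24 to 1.27), an interval that spans more than 2-fold either way. For Nqo1 it was 1.37 (0.75 to 1.99; adjusted p = 0.406), with RYGB at 6.62 against 6.12 in its shams and VSG at 6.15 against 7.02.

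**Figure D5:**
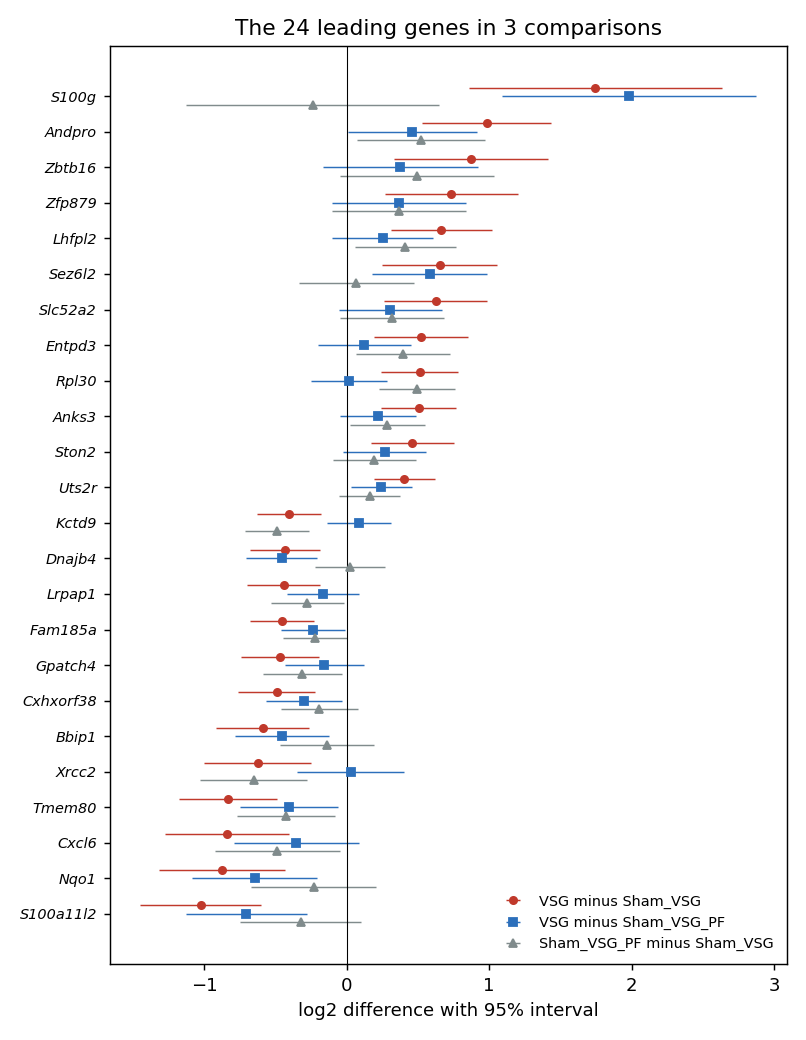
Log2 difference with its 95% interval (x axis) for the 24 genes with the smallest p and a difference of at least 0.40, in VSG minus Sham_VSG (red circles), VSG minus Sham_VSG_PF (blue squares) and Sham_VSG_PF minus Sham_VSG (grey triangles). The comparisons share arrays. S100g and Dnajb4 differ from both sham groups by similar amounts, while Rpl30, Kctd9 and Xrcc2 in VSG lie near Sham_VSG_PF.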

How the data were processed

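Ileal RNA of each rat, extracted with DNase digestion and amplified and biotin-labelled with NuGEN kits per the labels' protocols, was hybridised to 1-colour Affymetrix arrays, 1 per labelled biological replicate. The values the authors deposited are on the log2 scale, and the submitters' processing notes name RMA and Affymetrix Expression Console 1.3.0.187. RMA corrects background, quantile normalises probes and summarises clusters, which can shrink low signals. Which arrays were normalised together is not given in the sources used here, and no detection calls or scan dates were used. Of 36685 clusters, 14824 carried 1 symbol, 829 several and 21032 none. Genes with a mean over 30 arrays below the 25th percentile were left out.

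Using limma 3.58.1 (R 4.3.3), 5 group means were estimated from all 30 arrays, which left 25 residual degrees of freedom. P-values were two-sided, with Benjamini-Hochberg adjustment over the 10918 genes of a contrast. Means carry the SD over 6 rats. The number of rats limits the precision.

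Genes named were, by rule, the 12 higher and 12 lower with the smallest p and a log2 difference of at least 0.4, the 2 members with the smallest p in each of 45 gene lists, and 20 calcium, iron, hormone and bile acid genes. The members and lists were chosen with earlier results of these data known. Promoter sequences are from RefSeq. Plots used matplotlib 3.10.9 (Python 3.11.15).

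Alternatives were other scalings, filters and variance models, tissue covariates, array subsets, the replicate number as a block and leaving out each array.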

Additional observations from a re-analysis of the deposited data

Results flagged for a closer look

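Among the 236 sets of 6 arrays examined (118 genes in VSG and in Sham_VSG), 16 (6.78%) had 1 array set apart by Dixon's test, where chance gives about 1 in 20. VSG replicate 4 held 4 of them. It was low for the glucose transporter gene Slc5a1 (9.31), the amino acid transporter gene Slc16a10 (6.95) and Pcp4 (6.89), a calmodulin regulator of smooth muscle, and high for Nr4a1 (5.78). VSG replicate 5 held 3, being high for Nqo1 (6.87) and low for the FXR targets Fgf19 (5.33) and Nr0b2 (3.08). VSG replicate 1, the array high in fat cell genes, was high for the fat cell gene Retn (5.42). VSG replicate 2 was low for the mast cell gene Fcer1a (2.59) and VSG replicate 6 for the chemokine gene Cxcl2 (2.40). In the shams, replicate 1 was high for the neuronal gene Phox2a (3.56) and low for the mitotic kinase gene Plk1 (7.24). Sham_VSG replicate 5 was high for the neutrophil gene Ltf (4.30) and for Hpgds (5.97), the prostaglandin D synthase. Sham_VSG replicate 3 was high for Fabp6 (12.21), and Sham_VSG replicate 4 was low for Tph1 (4.22). The part of tissue admixture in these values was not tested.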

How the results depend on the processing

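VSG against Sham_VSG gave 0 genes past the threshold under every alternative run. The counts that moved were those of the companion comparisons. A smooth muscle covariate gave 196 genes for VSG against Sham_VSG_PF and 3 for Sham_VSG_PF against Sham_VSG. The latter gave 1 with only the arrays low in B and plasma cell genes, and between 0 and 1 with each array left out (1, Tmem269, without Sham_VSG_PF replicate 4). The RYGB effect minus the VSG effect gave 1 when all transcript clusters were tested. All 10 smooth muscle genes tested were higher in Sham_VSG_PF than in Sham_VSG, with a median of 0.30. In VSG minus Sham_VSG_PF their median was -0.27, with 2 higher and 8 lower. The causes of the moved counts were not tested. The replicate number as a block gave 0 in each of the 4 comparisons. Same-numbered VSG and Sham_VSG arrays had correlations of deviations of 0.31, -0.18, 0.38, 0.68, 0.35 and 0.33 for replicates 1 to 6. Differently numbered arrays were not compared in this way, so these values cannot decide whether the numbers are pairs. The main fit did not treat them as pairs. Of 1620 values of named genes under other settings 20 reversed, all small. They were, with quantile normalisation, Slc40a1 0.041 and Fabp6 0.0094. With median centring they were Tfrc 0.0088, Slc40a1 0.043 and Fabp6 0.048. A B and plasma cell covariate turned Vdr to -0.073, Heph to -0.097, Gcg to -0.098 and Slc51a to -0.040. A smooth muscle covariate turned Heph to -0.017, Gcg to -0.016 and Slc51a to -0.0069, and a fat cell covariate Slc40a1 to 0.062, Heph to -0.0030, Gcg to -0.019 and Slc51a to -0.010. The arrays low in B and plasma cell genes alone gave Try10 -0.16, Gcg -0.071 and Slc51a -0.0033, and leaving out the arrays rich in fat cell genes gave Tfrc 0.018.
With each array left out in turn, 33 of 1416 values reversed, in 10 genes whose differences then ran from -0.10 to 0.019 for Tfrc, -0.070 to 0.056 for Slc40a1, -0.022 to 0.071 for Slc51a, -0.038 to 0.15 for Vdr, -0.044 to 0.17 for Heph, -0.083 to 0.085 for Gcg, -0.015 to 0.027 for Fabp6, -0.37 to 1.19 for Fgf19, -0.32 to 1.19 for Nr0b2 and -0.37 to 0.13 for Ltf (0.13 without Sham_VSG replicate 5). The median of the 6 pancreatic acinar genes was -0.08 in place of 0.05 in the arrays low in B and plasma cell genes. The other 627 of 628 list medians under these settings moved by less than 1 SD between rats. That SD was wide, 1.40 for the B and plasma cell genes and 0.59 for the chemokines, so this does not show the medians to be stable. Neutrophil genes, at -0.15, were at 0.06 with the B and plasma cell covariate and 0.01 without VSG replicate 3. The B and plasma cell list, at -0.78, was at 0.02 with its own mean as the covariate, as that covariate is built to give. Other scalings shifted the median of all genes by at most 0.05, which was enough to change its sign. It was -0.03 in the main fit, 0.003 with quantile normalisation and 0.02 with median centring.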

Other observations

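Several lists outside the main account had small differences, with 0 members past the threshold. The S100 family had 10 of 13 genes lower, with a median log2 difference of -0.17 (-0.10 without VSG replicate 2 and -0.08 with the B and plasma cell mean as a covariate), although S100g, its highest member, differed by 1.75. Posterior Hox genes, which mark position along the gut, were higher in 9 of 11 with a median of 0.20, and 0.10 with that covariate. Against Sham_VSG_PF, 5 Hox genes were higher and 6 lower, and their median in Sham_VSG_PF minus Sham_VSG was 0.19. Genes typical of the upper small intestine were higher in 9 of 12, with a median of 0.15. Without VSG replicate 1 these were higher in 7 of 12 with a median of 0.09, and the median was 0.23 without VSG replicate 4, 0.07 in the arrays low in B and plasma cell genes and 0.09 with a fat cell covariate. Xenobiotic metabolism genes were higher in 16 of 23, with a median of 0.19. It was 0.02 with the B and plasma cell covariate, 0.12 with a smooth muscle and 0.09 with a fat cell covariate. Without VSG replicate 6 it was 0.07, without VSG replicate 4 0.30, and against Sham_VSG_PF -0.02. Smooth muscle, tuft cell and interferon genes had medians of 0.04, 0.02 and 0.04. The interferon median was -0.10 in the arrays low in B and plasma cell genes. All 3 red blood cell genes tested were higher, with a median of 0.31 that was 0.55 without VSG replicate 5, 0.18 with a fat cell covariate and 0.08 with no filter on dim genes. The globin gene Hba-a1 differed by 0.49 (95% interval -0.48 to 1.46), and by 0.24 without VSG replicate 3.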
